A study of Mus musculus with 14 samples.

Results

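The HoxD cluster on mouse chromosome 2 was examined in a series that mapped the contacts of active promoters in cells depleted of CTCF. The 9 members were Hoxd1, Hoxd3, Hoxd4, Hoxd8, Hoxd9, Hoxd10, Hoxd11, Hoxd12 and Hoxd13, out of 17491 protein-coding genes with a start site in the RefSeq promoter table. A contact was counted when 1 of its anchors lay in the 10 kb bin of a member's start site, which gave 8 bins between 74660001 and 74770000 (mm10), since Hoxd10 and Hoxd9 start in the same bin and share every value. Hoxd11 has 2 RefSeq starts, and it was placed in the bin of the start at 74682323, because the other one, at 74679558, falls in the bin of Hoxd12.

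The assay was H3K4me3 PLAC-seq, a proximity ligation method in which fragments carrying trimethylated lysine 4 of histone H3, a mark of active promoters, are pulled down before sequencing. All cells derived from the F123 mouse embryonic stem cell (ESC) line with CTCF-AID, a CTCF protein fused to an auxin-inducible degron, so the controls carried the degron as well. The 4 groups were ESCs harvested at 0 h of auxin, named ESC control, ESCs treated for 48 h, named ESC auxin, and neural precursor cells (NPCs) harvested on day 4 of a differentiation run without auxin (NPC control) or with it (NPC auxin). The dose was 1 µl of a 500 mM stock in each ml of medium. Lists of 4 values below follow this order. CTCF protein was not measured in the files used here, and the labels do not say whether the line was a single clone. Of 14 samples, 8 belonged to these 4 groups, 2 in each, and the 6 samples with dCas9 constructs were not analysed here. Each group came as 1 list of called contacts, named loops below, from each of 2 callers, MAPS and FitHiChIP. No difference between conditions therefore has a replicate check or a p-value, and the exact 95% intervals cover counting error only. Loops in adjacent bins are not independent, so the intervals are likely too narrow.

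Hox genes encode homeodomain transcription factors that give cells along the body axis and the limbs their positional identity, and they lie in clusters in the order in which they are used. HoxD sits between gene-poor regulatory domains, a centromeric one known for enhancers of the digits and genitalia and a telomeric one known for enhancers of the early limb, forearm and other tissues. CTCF, a zinc finger protein that stops loop extrusion by cohesin, binds at many places in the cluster and at domain borders. In ESCs the Hox genes are largely silent, and their promoters carry H3K4me3 together with the Polycomb mark. All 9 members are on the + strand, with Hoxd13 at the centromeric end and Hoxd1 at the telomeric end.

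The promoter windows of the outermost members, Hoxd13 and Hoxd1, are shown with those of Hoxd9, whose bin held the highest MAPS counts, and Hoxd4, a member with few CpG sites. Each is a RefSeq window (build GRCm38.p6, the same chromosomes as mm10) from 250 bases before to 50 after the start, written 5′ to 3′, at chr2:74667975-74668274 for Hoxd13, chr2:74697513-74697812 for Hoxd9, chr2:74721728-74722027 for Hoxd4 and chr2:74762730-74763029 for Hoxd1, all on the + strand. Capitals mark AGGNGGCGC, a piece of the CTCF consensus searched on both strands.
Hoxd13: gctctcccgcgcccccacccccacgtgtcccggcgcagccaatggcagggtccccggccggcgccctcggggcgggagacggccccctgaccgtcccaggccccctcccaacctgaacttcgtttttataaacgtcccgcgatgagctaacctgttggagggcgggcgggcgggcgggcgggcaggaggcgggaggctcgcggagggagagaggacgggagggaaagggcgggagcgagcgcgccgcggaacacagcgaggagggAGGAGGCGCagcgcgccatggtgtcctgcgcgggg
Hoxd9: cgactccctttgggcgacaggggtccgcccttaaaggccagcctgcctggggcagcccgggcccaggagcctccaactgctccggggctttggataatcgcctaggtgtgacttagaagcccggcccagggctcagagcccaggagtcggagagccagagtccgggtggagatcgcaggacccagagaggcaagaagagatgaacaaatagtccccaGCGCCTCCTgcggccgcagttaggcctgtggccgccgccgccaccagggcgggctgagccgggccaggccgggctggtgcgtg
Hoxd4: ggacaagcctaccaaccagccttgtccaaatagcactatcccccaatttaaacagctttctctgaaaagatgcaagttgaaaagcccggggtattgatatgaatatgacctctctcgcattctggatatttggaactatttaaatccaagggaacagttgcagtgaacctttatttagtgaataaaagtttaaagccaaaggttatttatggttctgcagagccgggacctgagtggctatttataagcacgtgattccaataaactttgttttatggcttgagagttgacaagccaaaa
Hoxd1: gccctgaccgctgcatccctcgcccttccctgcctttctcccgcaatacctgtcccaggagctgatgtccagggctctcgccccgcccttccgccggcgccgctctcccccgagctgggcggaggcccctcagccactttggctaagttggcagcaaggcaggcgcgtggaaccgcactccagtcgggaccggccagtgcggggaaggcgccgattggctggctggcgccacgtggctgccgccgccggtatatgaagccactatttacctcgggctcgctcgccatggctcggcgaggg
The letters occurred once in the window of Hoxd13, on the + strand from 15 bases after the start, and once in that of Hoxd9, on the opposite strand from window position 218. The other 8 windows of the cluster held no match, and 3.32% of the 32544 windows in the table held 1 or more. A match describes the letters and not binding, which was not measured in the files used here. CpG dinucleotides numbered 37 at Hoxd13, 29 at Hoxd1, 20 at Hoxd9 and 4 at Hoxd4, against a median of 7 over all windows. All 8 start-site bins carried an H3K4me3 peak flag in each list that held a loop of theirs.

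Across the cluster MAPS called 113 loops for ESC control, 36 for ESC auxin, 249 for NPC control and 108 for NPC auxin, which was 0.199%, 0.130%, 0.301% and 0.259% of the 56714, 27610, 82861 and 41667 loops of each list. FitHiChIP called 65, 35, 144 and 53 in the same order. The contacts behind the FitHiChIP lists numbered 47519917, 48307867, 52337421 and 59961568, so the lists with auxin were shorter without being shallower. Changes are therefore given as the log2 ratio of loops, with a pseudocount of 1, less that of the list totals on the same scale. On that scale the cluster stood at -0.58 (interval -1.20 to -0.06) in ESC auxin against control and at -0.21 (-0.55 to 0.12) in NPC auxin against control. NPC control against ESC control gave 0.59 (0.27 to 0.93), and NPC auxin against ESC auxin gave 0.97 (0.43 to 1.58). The FitHiChIP values were -0.31 (-0.97 to 0.28), -0.57 (-1.07 to -0.12), 0.71 (0.29 to 1.17) and 0.46 (-0.17 to 1.13), in the same directions. The callers thus differed in 3 of the 4 comparisons in whether the interval included 0.

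The side of the partner changed from gene to gene along the cluster. In ESC control, Hoxd13, which patterns the digits, held 22 MAPS loops, all with centromeric partners, and Hoxd12, its neighbour in the distal limb program, held 14, also all centromeric. Hoxd11, a gene of the forearm, held 1 centromeric and 9 telomeric loops, and the bin of Hoxd10 and Hoxd9, genes of the limb and the lumbar spinal cord, held 1 and 15. The 12 loops of Hoxd8, the 21 of Hoxd3, a gene of the neck vertebrae, the 10 of Hoxd4, a hindbrain and neck gene responsive to retinoic acid, and the 8 of Hoxd1, which acts in sensory neurons, were all telomeric. The turn from one side to the other thus fell between Hoxd12 and Hoxd11 in ESCs.

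In NPC control Hoxd13 held 44 centromeric and 3 telomeric loops, Hoxd12 held 19 and 3, and Hoxd11 held 24 and 24. The bin of Hoxd10 and Hoxd9 held 6 and 35, and Hoxd8 held 1 and 31. Hoxd3 with 33, Hoxd4 with 18 and Hoxd1 with 8 had no centromeric loop. Hoxd11 was thus the bin where the sides were even. FitHiChIP gave the same order in NPC control, with 34 centromeric and 2 telomeric loops at Hoxd13, 15 and 10 at Hoxd11, 5 and 21 at Hoxd10 and Hoxd9, and 0 and 17 at Hoxd3.

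**Figure D1:**
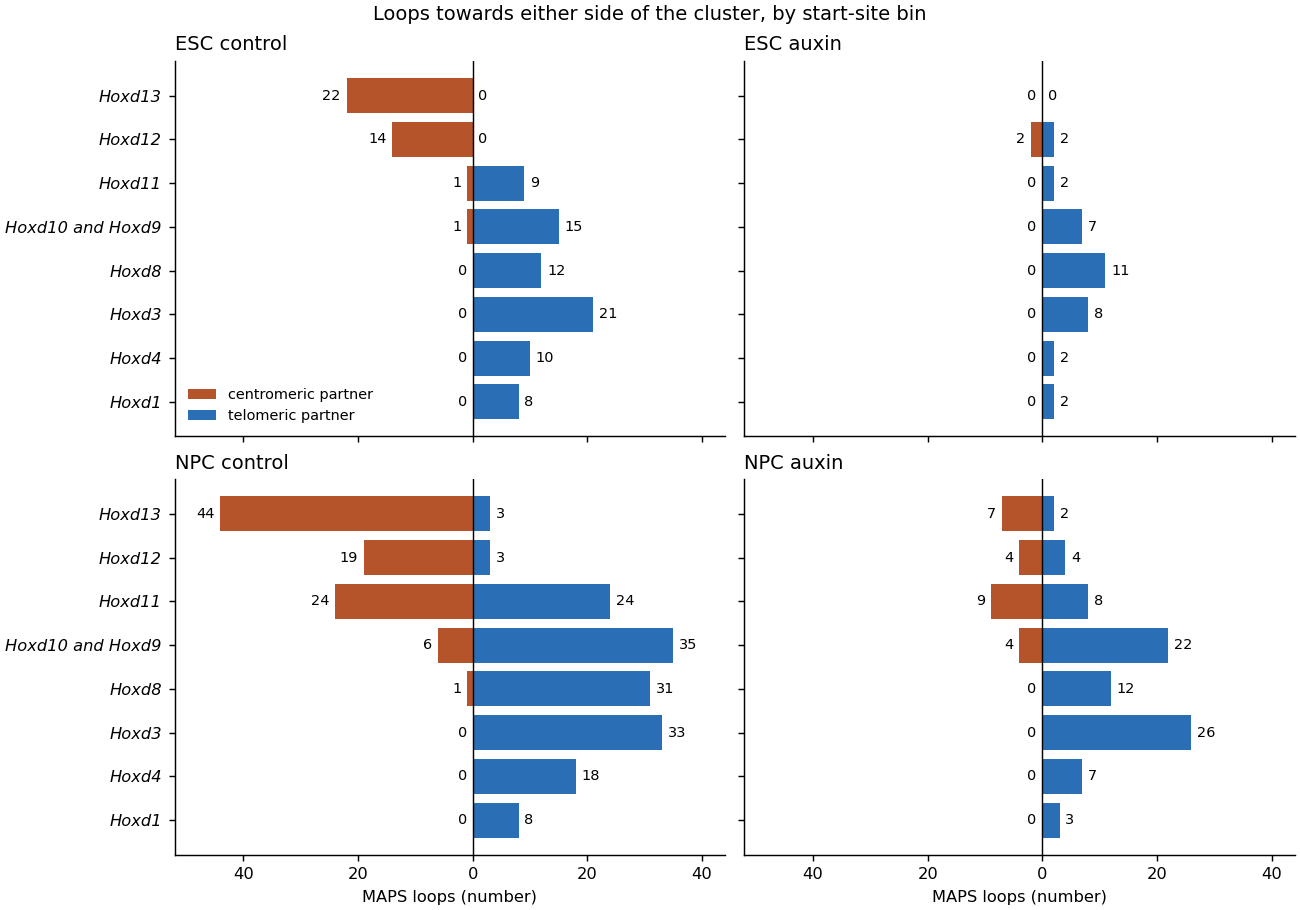
MAPS loops (number, horizontal axis) of each start-site bin, ordered from Hoxd13 to Hoxd1, with centromeric partners drawn to the left and telomeric partners to the right, 1 panel per group. Centromeric loops sit at the Hoxd13 end and telomeric ones at the Hoxd1 end in both controls, and the centromeric bars of Hoxd13 shrink from 22 to 0 in ESCs and from 44 to 7 in NPCs with auxin.

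The comparison of cells with and without auxin asks which of these contacts are called when CTCF is depleted. Centromeric loops were few with auxin. MAPS called 38 without auxin and 2 with it in ESCs, a change of -2.66 (-6.31 to -1.26) relative to the list totals, and 94 and 24 in NPCs, a change of -0.93 (-1.69 to -0.32). Telomeric loops numbered 75 and 34 in ESCs (-0.08, -0.73 to 0.50) and 155 and 84 in NPCs (0.12, -0.29 to 0.50), close to the ratio of the list totals in both cell types. The telomeric share of the loops of ESCs was 66.4% (56.9 to 74.99, exact Clopper-Pearson) without auxin and 94.4% (81.3 to 99.3) with it, and that of NPCs 62.2% (55.9 to 68.3) and 77.8% (68.8 to 85.2).

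The ESC result differed between the callers. FitHiChIP lists pairs up to 2000 kb apart, where MAPS stops at 1000 kb. It called 27 and 15 centromeric loops in ESCs, a change of -0.25 (-1.30 to 0.67). Those of ESC auxin include short pairs with the Evx2 bin, which adjoins that of Hoxd13. The Evx2 bin shared 209 contacts with Hoxd11 at 30 kb and 179 with the bin of Hoxd10 and Hoxd9 at 40 kb. These were 1.38 and 1.42 times the expected contacts. FitHiChIP called 35 and 17 telomeric loops in ESCs, a change of -0.44 (-1.41 to 0.39), and the telomeric shares were 56.5% and 53.1%. Among its pairs up to 1000 kb apart the telomeric share was 62.5% and 85.0% (62.1 to 96.8), so the longer pairs carried the difference. In NPCs FitHiChIP called 70 and 20 centromeric loops, a change of -0.90 (-1.75 to -0.22), and 74 and 32 telomeric ones, a change of -0.33 with an interval that included 0.

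In the MAPS lists Hoxd13 changed the most of the 8 bins with auxin. It held 22, 0, 47 and 9 MAPS loops. The interval of its change lay under -1.42 in ESCs, where a list without loops sets no lower bound, and at -1.27 (-2.61 to -0.35) in NPCs. FitHiChIP called 17, 6, 36 and 9 loops there, a change of -0.80 (-2.57 to 0.47) in ESCs and of -1.03 (-2.39 to -0.06) in NPCs. In the FitHiChIP lists, among bins with at least 10 loops over both lists, other bins changed more, Hoxd3 in ESCs, with 10 and 2 loops (-1.31, -4.99 to 0.47), and Hoxd12 in NPCs, with 16 and 3 (-1.23, -3.98 to 0.24). Of the 47 MAPS loops of Hoxd13 in NPC control, 7 were called in the same pair of bins with auxin, and none of the 22 in ESCs.

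The other bins kept closer to their lists in MAPS. Hoxd12 held 14, 4, 22 and 8 MAPS loops. Hoxd11 held 10, 2, 48 and 17, and the bin of Hoxd10 and Hoxd9 held 16, 7, 41 and 26. Hoxd8 held 12, 11, 32 and 12. Each of these changes with auxin had an interval that included 0. Hoxd3 held 21, 8, 33 and 26, Hoxd4 held 10, 2, 18 and 7, and Hoxd1 held 8, 2, 8 and 3, again with intervals that included 0.

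A bin was called when it held at least 10 loops over both lists and changed at least 2-fold relative to the list totals. With auxin 1 of the 8 HoxD bins, that of Hoxd13, was called lower in ESCs, where 10.6% of 1526 promoter bins were, and 0 were called higher, where 22.9% were. In NPCs the same bin was the 1 of 8 called lower, against 11.7% of 2690 promoter bins, and 0 were called higher, against 16.4%. A share of 1 in 8 is near the background, so the count says nothing particular about HoxD. Which bin was called depended on the caller. FitHiChIP left 6 HoxD bins with enough loops. In ESCs it called Hoxd3 lower and not Hoxd13, 1 of 6, against 8.65% of 798 promoter bins, and 0 higher, against 7.64%. In NPCs it called Hoxd13 and Hoxd12 lower, 2 of 6, against 7.71% of 1530, and 0 higher, against 13.3%. Hoxd13 was thus the bin called lower by both callers in NPCs, and no bin was in ESCs. The median MAPS change over the 8 bins was -0.55 in ESCs and -0.30 in NPCs, beside 0.36 and 0.31 over all promoter bins tested. With FitHiChIP it was 0.27 and -0.75 over the 6 bins, beside 0.28 and 0.34.

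**Figure D2:**
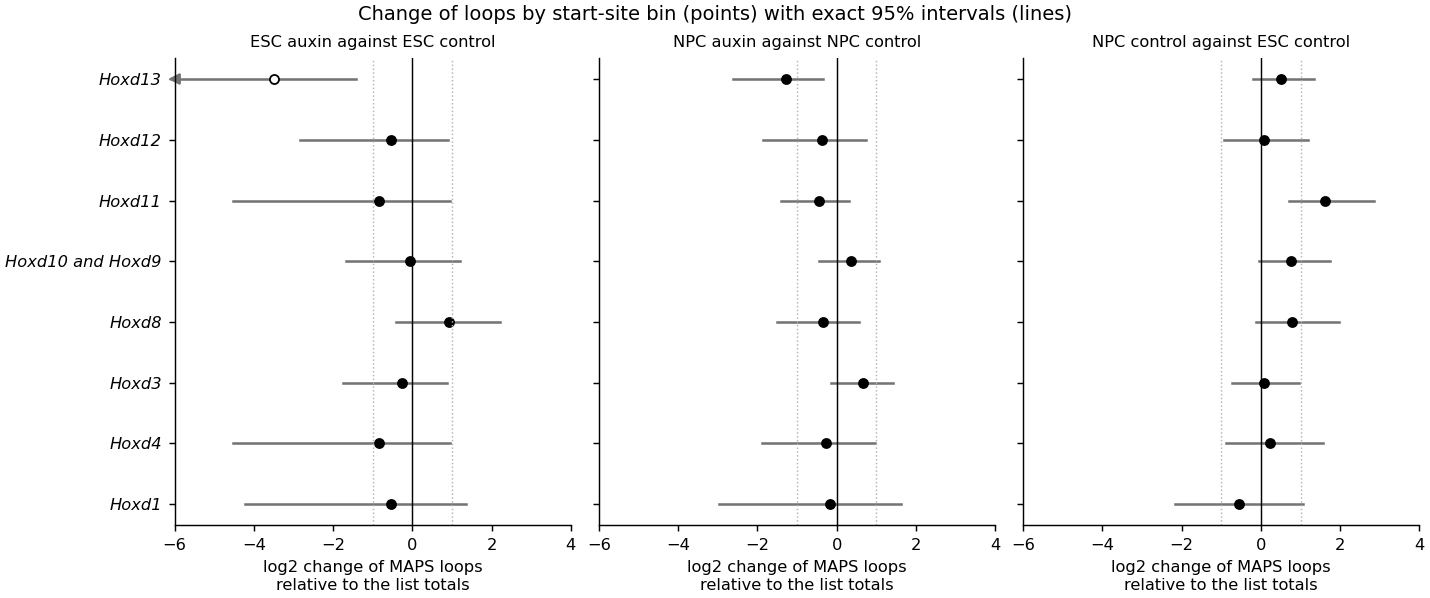
Change of MAPS loops of each start-site bin (points, log2 relative to the list totals) with exact 95% intervals (lines) in 3 comparisons; dotted lines mark 2-fold. The open point has 0 loops in ESC auxin and its place depends on the pseudocount, while the interval of Hoxd13 lies under 0 in both auxin panels and that of Hoxd11 above 0 in NPC control against ESC control.

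Loop by loop, the sides also differed in how many control loops were called again in the same pair of bins. In ESCs MAPS called again 0 of 38 centromeric loops, with an upper bound of 9.25%, and 27 of 75 telomeric loops, or 36.0% (25.2 to 47.9), where 22.9% of all loops in the control list were called again. In NPCs it called again 14 of 94 centromeric loops, or 14.9% (8.39 to 23.7), and 62 of 155 telomeric loops, or 40.0% (32.2 to 48.2), beside 27.0% of all loops. The intervals of the sides did not overlap in either cell type. FitHiChIP called again 14.8% of centromeric and 40.0% of telomeric loops in ESCs, and 17.1% and 33.8% in NPCs. The order was the same but the intervals overlapped. Of all its loops 43.3% were called again in ESCs and 35.8% in NPCs. The 4 centromeric loops that FitHiChIP called again in ESCs were all over 1000 kb, which the MAPS lists do not cover. At shorter distances it called again 0 of 1 at 20 to 490 kb and 0 of 20 at 500 to 1000 kb.

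Centromeric loops were longer, with a median of 630 kb against 390 kb for telomeric loops in both controls. Fewer of them had a count of at least 20, 16 of 38 against 55 of 75 in the ESC control list and 48 of 94 against 107 of 155 in that of NPCs. Among loops of 500 to 1000 kb, MAPS called again 0 of 30 centromeric and 5 of 12 telomeric loops in ESCs, beside 21.4% of all such loops. In NPCs it called again 13 of 73 (17.8%, 9.84 to 28.5) and 11 of 35 (31.4%, 16.9 to 49.3), with overlapping intervals, beside 30.3%. Among loops of 20 to 490 kb, MAPS called again 0 of 8 centromeric and 22 of 63 telomeric loops in ESCs, beside 23.0%. In NPCs it called again 1 of 21 (4.76%, 0.12 to 23.8) and 51 of 120 (42.5%, 33.5 to 51.9), beside 26.4%, and the intervals did not overlap. Among loops with a count of at least 20, MAPS called again 0 of 16 centromeric and 21 of 55 telomeric loops in ESCs, beside 27.3% of all such loops. In NPCs it called again 9 of 48 (18.8%, 8.95 to 32.6) and 54 of 107 (50.5%, 40.6 to 60.3), beside 31.8%. The part of distance in the difference between the sides was not tested further. Anchors were then allowed to differ by 1 bin. MAPS called again 5.26% of centromeric and 86.7% of telomeric loops in ESCs, beside 46.07% of all loops. In NPCs it called again 57.4% (46.8 to 67.6) and 85.8%, beside 50.03% of all loops. Many centromeric loops of NPCs thus had a neighbour in the auxin list. Within 1 bin, the centromeric share of NPCs was not below that of all loops, as it was in the same bins. In ESCs it was below in both settings.

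**Figure D3:**
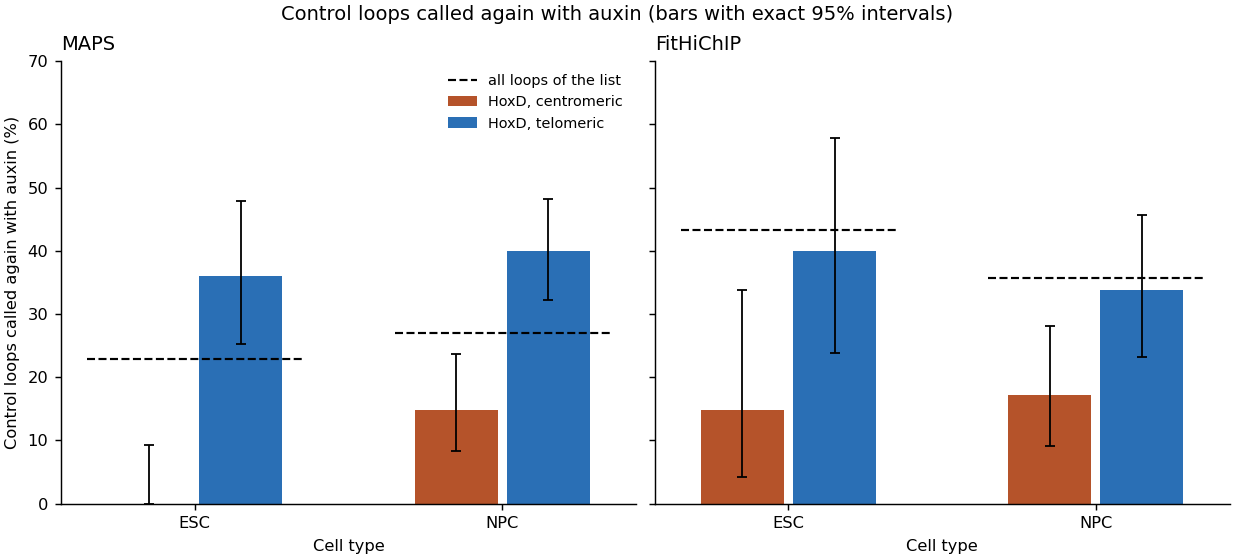
Share of the control loops (percent, vertical axis) called again in the same bins with auxin, for centromeric and telomeric HoxD loops in each cell type and caller, with exact 95% intervals as error bars and the share over all loops of the control list as a dashed line. The centromeric bar is the lower one in each pair, at 0 in ESCs and 14.9% in NPCs with MAPS.

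Loops that joined a HoxD bin to another H3K4me3 peak bin were called again more often than loops to a bin without a peak. On both sides together, MAPS called again 10 of 18 such loops (55.6%, 30.8 to 78.5) against 17 of 95 (17.9%, 10.8 to 27.1) in ESCs, and 24 of 41 (58.5%, 42.1 to 73.7) against 52 of 208 (19.3 to 31.5%) in NPCs. In ESCs the difference was in telomeric loops alone, 10 of 14 against 17 of 61, since 0 of 4 and 0 of 34 centromeric loops were called again. In NPCs it was 16 of 21 against 46 of 134 telomeric and 8 of 20 against 6 of 74 centromeric loops. Over all MAPS loops the shares were 32.7% and 19.4% in ESCs and 39.1% and 24.2% in NPCs. FitHiChIP gave 52.0% and 15.0% at HoxD in ESCs, with 3 control pairs inside the cluster included, and 49.2% and 9.41% in NPCs. Over all FitHiChIP loops the shares were 39.5% and 47.4% in ESCs, where the order was the opposite one, and 44.6% and 27.9% in NPCs. The peak partners lay in few bins, 5 in ESC control and 12 in NPC control, so these loops share their targets. In the MAPS lists the partner carried a peak in 15.9% of HoxD loops without auxin and 38.9% with it in ESCs, and in 16.5% and 31.5% in NPCs. Over all MAPS loops the share with a peak at both anchors was also higher with auxin, 26.4% and 36.2% in ESCs and 19.1% and 26.6% in NPCs.

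The partner bins formed runs, which were chosen after their values had been seen and are therefore described only. On the centromeric side the strongest lay at 74000001 to 74100000 and at 74250001 to 74310000, where no start site of a named gene falls. The first held 17, 0, 27 and 4 MAPS loops. The second held 7, 0, 13 and 2. Within them, Hoxd13 and the bin at 74060001 shared 45 contacts in ESC control (32.8 to 60.2, exact Poisson) and 85 in NPC control (67.9 to 105), and the pair was in neither auxin list of either caller. Hoxd13 and the bin at 74290001 shared 47 contacts in ESC control, 66 in NPC control (51.0 to 84.0) and 25 in NPC auxin (16.2 to 36.9). Both runs thus nearly emptied with auxin in ESCs and in NPCs.

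Farther out on the same side, some contacts of NPCs were still called with auxin. The run at 73830001 to 73920000 covers the start sites of Atf2, a transcription factor of the CREB family, and Atp5g3, a subunit of the mitochondrial ATP synthase, and it held 6, 2, 14 and 16 MAPS loops. Of the 6 and 14 control loops, 0 and 7 were called again in the same bins. Hoxd13 and the Atf2 bin at 73890001 shared 35 contacts in NPC control (24.4 to 48.7) and 42 in NPC auxin (30.3 to 56.8), and 32 and 39 in the FitHiChIP lists. Hoxd11 and the Atf2 bin shared 33 and 38. Hoxd12 and the Atf2 bin shared 33 and 24, and 20 in ESC auxin, the pair being absent from the MAPS list of ESC control. Each of these pairs of NPC counts had overlapping intervals, but pairs absent from a list are not among them. The Atp5g3 bin at 73910001 was listed with Hoxd13, Hoxd12 and Hoxd11 in NPC control and with Hoxd13 alone in NPC auxin, with 84 and 28 contacts in all. In the FitHiChIP lists it had 99 and 47. These sums cover the pairs that each list called. The pairs in both FitHiChIP lists had 28 and 26 contacts with Hoxd13, and 19 and 21 with the bin of Hoxd10 and Hoxd9. In the MAPS lists Hoxd13 and the Atp5g3 bin shared 30 and 28. With the bin of Hoxd10 and Hoxd9, the Atf2 bin was listed only in NPC auxin, with 31 contacts.

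The telomeric partners centred on 75100001 to 75160000, which is 440 to 490 kb from the Hoxd13 bin and holds no start site of a named gene. This run held 30, 16, 39 and 21 MAPS loops, and its bin at 75130001, which has an H3K4me3 peak, was listed with 6, 5, 7 and 6 of the 8 HoxD bins. The HoxD loops with the highest MAPS counts in both controls ended there. The bin of Hoxd10 and Hoxd9 and that at 75130001 shared 61 (46.7 to 78.4), 27 (17.8 to 39.3), 136 (114 to 161) and 69 (53.7 to 87.3) contacts. With auxin both counts were lower beyond their counting intervals, yet the loop was called in all 4 lists of each caller.

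Other members showed the same target at other strengths. Hoxd3 and the bin at 75130001 shared 59, 26, 109 and 38 contacts. Hoxd8 and the neighbouring bin at 75140001 shared 51, 25, 96 and 40. The highest count of both bins was thus that of NPC control. Hoxd4 shared 40, 18, 37 and 30 contacts with 75130001, and its NPC counts had overlapping intervals. Hoxd1 shared 23, 23 and 37 contacts with it in ESC control, ESC auxin and NPC control, and the pair was not in the NPC auxin list. Hoxd11 shared 30 contacts with it in ESC control, 79 in NPC control (62.5 to 98.5) and 42 in NPC auxin (30.3 to 56.8).

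At the far telomeric end, the run from 75530001 to 75660000, 870 to 990 kb from the Hoxd13 bin, reaches the start site of Hnrnpa3, an RNA-binding protein gene. It held 11, 9, 16 and 24 MAPS loops. Its peak bin at 75580001 was listed with 3, 6, 6 and 6 of the 8 HoxD bins, with 47, 96, 133 and 133 contacts in all. In the FitHiChIP lists it had 45, 90, 139 and 130. These sums cover the pairs that each list called, so they also follow how many HoxD bins were listed. The run at 74930001 to 75010000, by contrast, held 16, 3, 32 and 13 loops, and Hoxd3 and its bin at 74960001 shared 50 contacts in ESC control, 101 in NPC control (82.3 to 123) and 55 in NPC auxin (41.4 to 71.6).

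**Figure D4:**
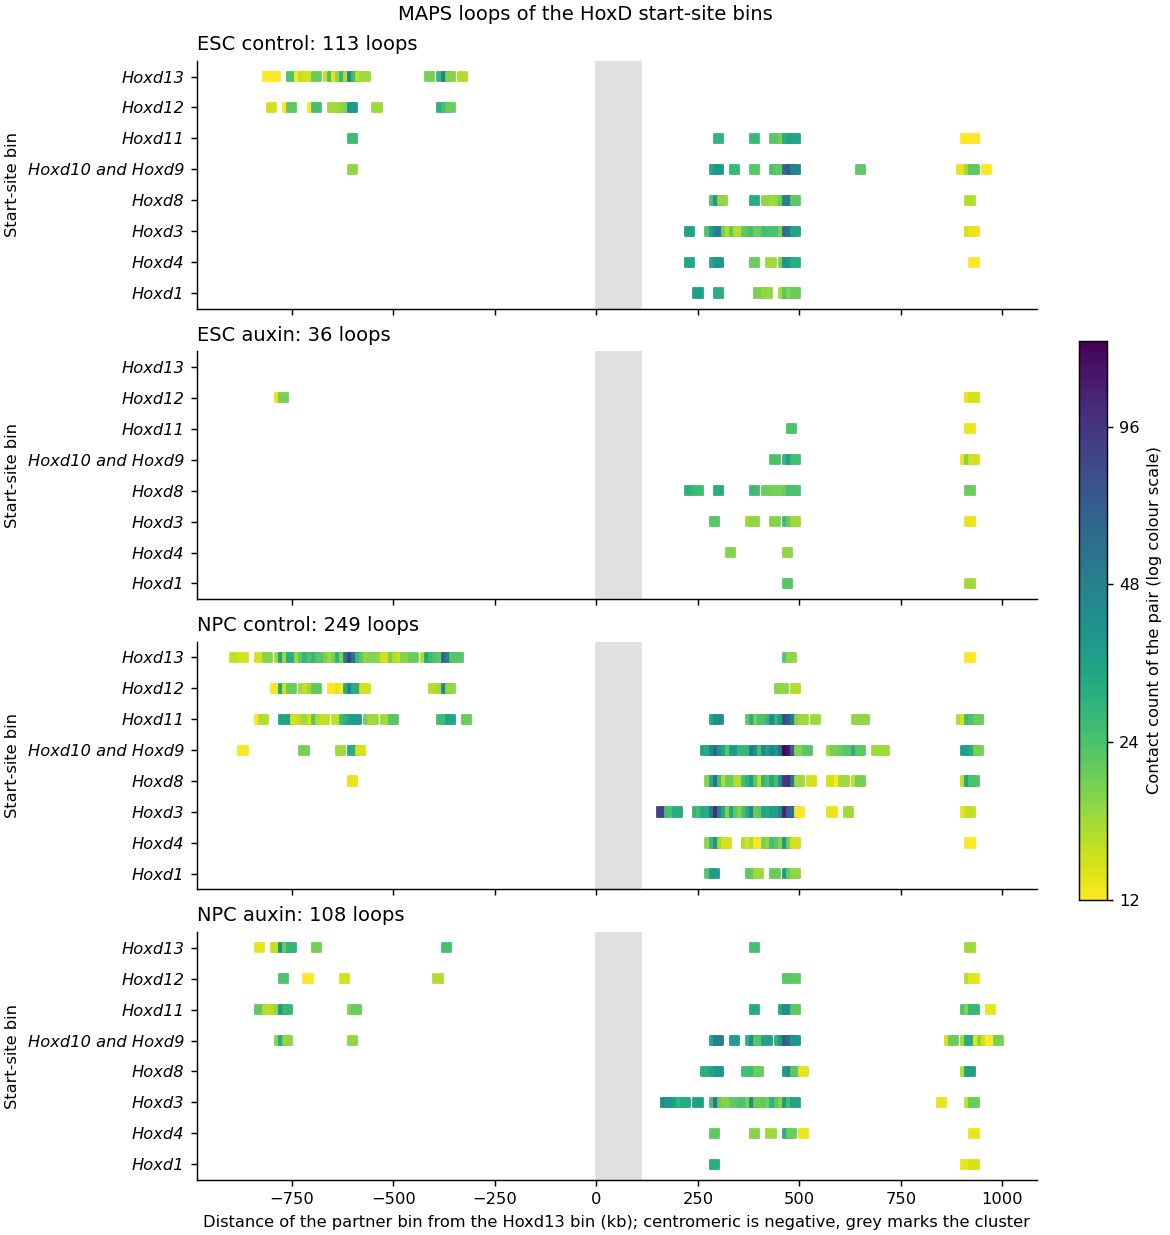
Each square is a MAPS loop, placed by its start-site bin (vertical axis) and the distance of its partner bin from the Hoxd13 bin (horizontal axis, kb, centromeric negative), coloured by contact count on a log scale, 1 panel per group. The block of Hoxd13 loops between 300 and 900 kb on the centromeric side is empty in ESC auxin and sparse in NPC auxin, and the squares near 470 and 920 kb on the telomeric side are present in all 4 panels.

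Where a loop was called in both lists, its contact count was mostly lower with auxin. In ESCs 19 of 27 shared MAPS loops had a lower count and 5 a higher one, with a median log2 ratio of -0.44, beside -0.11 over the 12979 loops shared by the whole lists. In NPCs 53 of 76 were lower and 20 higher, with a median of -0.34, beside -0.07 over 22391 loops. The difference from the median of all shared loops was thus -0.33 and -0.27. In NPCs the 62 telomeric loops had a median of -0.35 and the 14 centromeric ones -0.21.

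**Figure D5:**
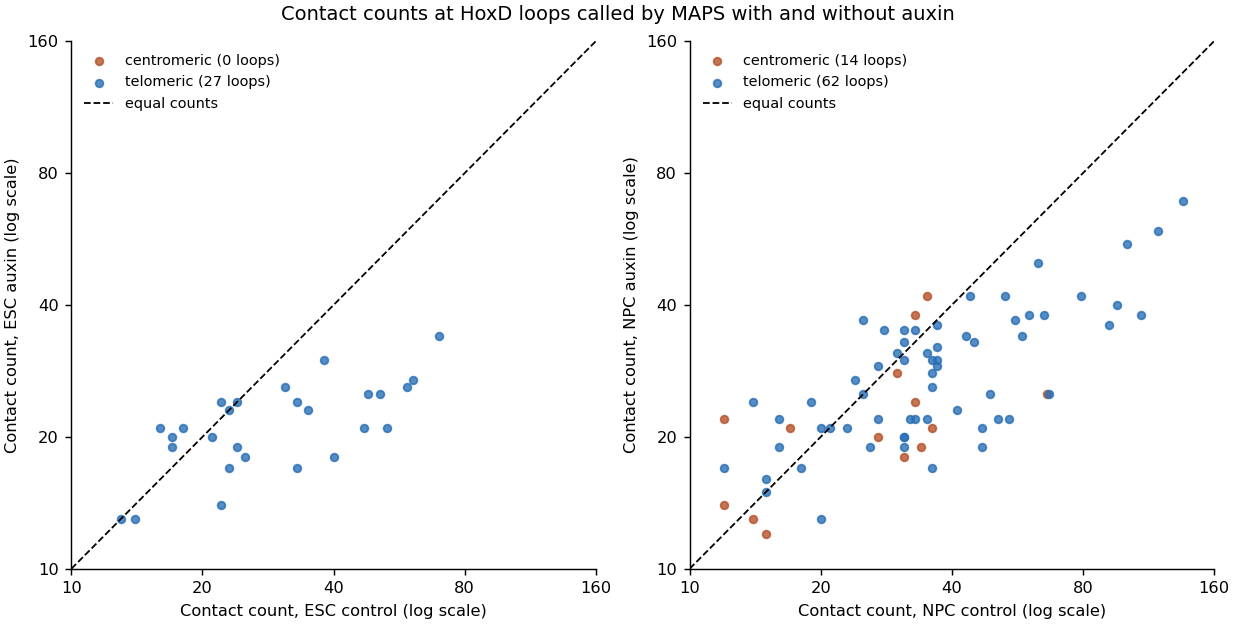
Contact counts of HoxD loops called by MAPS in both lists of a cell type, control on the horizontal and auxin on the vertical axis (log scales), coloured by side; the dashed line marks equal counts. Of the points, 19 of 27 in ESCs and 53 of 76 in NPCs lie under the line, and the highest counts lie farthest to the right, at 70 contacts in ESC control with 34 in ESC auxin and 136 in NPC control with 69 in NPC auxin.

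The comparison of NPCs with ESCs asks how the contacts differ after differentiation. Of the 113 loops of ESC control, 99 were called again in NPCs (87.6%, 80.1 to 93.1), where 50.3% of all loops were. Of the centromeric loops 34 of 38 were called again, and of the telomeric ones 65 of 75. Counts at the shared loops were higher in NPCs for 78 and lower for 18, with a median log2 ratio of 0.50, beside 0.19 over all shared loops. FitHiChIP called again 54 of 65 (83.1%), where 53.5% of all its loops were, and 3 of the 65 were pairs inside the cluster.

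In the MAPS control lists Hoxd11 gained the most loops with differentiation, from 10 to 48, a change of 1.61 (0.71 to 2.86). FitHiChIP gave 8 and 25 for it, a change of 1.11 (0.03 to 2.58). By number, Hoxd13 gained more there, with 17 and 36 loops, a change of 0.62 (-0.21 to 1.58). Hoxd11 was the 1 of 8 HoxD bins called higher, where 18.2% of 2853 promoter bins were, and 0 were called lower, where 10.3% were, so the count is near the background. FitHiChIP called it and the bin of Hoxd10 and Hoxd9 higher, 2 of 7, against 18.5% of 1549 promoter bins, and 0 lower, against 7.94%. Its centromeric loops went from 1 to 24. The changes of the other 7 bins ranged from -0.55 at Hoxd1 to 0.80 at Hoxd8, with intervals that included 0. Between the auxin lists, Hoxd11 with 2 and 17 loops and the bin of Hoxd10 and Hoxd9 with 7 and 26 were called higher in NPCs, 2 of the 5 bins with enough loops, where 20.1% of 1427 promoter bins were, and 0 were called lower, where 12.5% were. FitHiChIP called 0 of 3 there in either direction, against 20.1% of 747 promoter bins higher and 7.63% lower. These comparisons share lists with the auxin comparisons, so they are not independent of them.

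On the log2 scale, reads at the start-site bins moved little with auxin. The FitHiChIP coverage of the Hoxd13 bin was 6702, 6917, 9132 and 10319. Over the 8 bins the log2 ratio of auxin to control, minus the median over all peak bins, ran from -0.21 at Hoxd12 to -0.02 at Hoxd1 in ESCs, and from -0.03 at Hoxd8 to 0.12 at Hoxd4 in NPCs over the 7 bins with a value. In ESCs all 8 bins thus lay below the median, and Hoxd12 lay at percentile 2.55 of 9231 peak bins. In NPCs Hoxd4 lay at percentile 87.1 of 11645. By the short-range read counts of MAPS, Hoxd12 lay at percentile 9.55 in ESCs and Hoxd1 at 85.9. Between the controls Hoxd11 coverage was 7847 in ESCs and 13357 in NPCs, 0.34 above the median of all peak bins, and Hoxd4 coverage was 3972 and 3621, 0.57 below it. The coverage of Hoxd11 thus moved in the direction of its loops. Hoxd3 coverage was 3868 and 6386, 0.29 above the median. The loops of Hoxd3 changed by 0.08 in the MAPS lists and by 0.29 in those of FitHiChIP. The part of coverage in the change of loops was not tested.

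Evx2, a homeobox gene beside Hoxd13 in the bin at 74650001, held 17, 1, 31 and 9 MAPS loops, and Lnpk, which shapes the endoplasmic reticulum, held 0, 0, 8 and 6. On the telomeric side Mtx2, a mitochondrial import gene, held 1, 0, 4 and 3, and Nfe2l2, a regulator of the oxidative stress response, held 5, 9, 11 and 15. The drop of Hoxd13 was thus also seen in its neighbour Evx2, whose bin adjoins it and can share its partners. Hoxa13, the paralogue at the end of the HoxA cluster, held 19, 8, 33 and 7 loops. The 7 start-site bins of HoxA held 97, 43, 238 and 101 loops, a change with auxin of -0.12 (-0.69 to 0.40) in ESCs and -0.24 (-0.60 to 0.10) in NPCs. The intervals of HoxA and HoxD overlapped in both. The 3 start-site bins of HoxB in the table held 64, 45, 103 and 82 loops, a change of 0.54 (-0.05 to 1.10) in ESCs and 0.67 (0.23 to 1.10) in NPCs. The intervals of HoxB and HoxD did not overlap in either cell type, though in ESCs their nearest bounds, -0.0531 and -0.0591, almost met. In the table of promoters there were 3 HoxB genes and 1 HoxC gene, and Hoxb13 and Hoxc13 were not analysed here.

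The 5 promoter bins outside the HoxD region with the loop numbers most like those of Hoxd13, by Euclidean distance over log2 of the MAPS loops plus 1 in the 4 groups, were those of Alg10b, Ptger4, Plk2, Nuak1 and Cemip. They held 12 to 17, 0, 19 to 60 and 6 to 14 loops, at distances of 0.82 to 1.32. The likeness rests on 4 lists.

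The labelled cell types were checked on marker genes. There were 8 ESC markers with a start site, among them Pou5f1 and Nanog. In the FitHiChIP lists 7 of them had a peak bin in ESC control and 4 in NPC control. A bin is in a list only where a loop of it was called, so these counts also follow the calling of loops. In the MAPS lists 1 of the 8 had no loop in ESC control and 2 had none in NPC control. Pou5f1, not in the FitHiChIP list of NPC control, held 1 MAPS loop in each control. Of the 4 markers with FitHiChIP coverage in both controls, 3 had a ratio below the median of all peak bins. Of 8 NPC markers, among them Pax6 and Sox1, 7 had a peak bin in both, and 5 of them had a ratio above that median. Of 4 neuron markers 1 had a peak bin in ESC control and 2 in NPC control, of 4 mesoderm markers 3 and 4, and of the endoderm markers the 1 with a start site in the table, Foxa2, in both. The log2 coverage ratio of NPC to ESC control was 1.04 at Foxa2, beside medians of 0.69 over the NPC markers and 0.43 over all peak bins, and 2 of the 3 mesoderm markers with a ratio lay above the latter. The coverage thus did not set NPC markers apart from Foxa2. H3K4me3 also marks silent promoters in ESCs, so a peak bin does not show that a marker was expressed.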

How the data were processed

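H3K4me3 PLAC-seq contacts of 8 samples in 4 groups were analysed from 8 deposited lists, 1 per group and caller. Pooling of the 2 samples behind a list is not given in the labels. BWA, Picard and mm10 are named in the submitters' processing notes, without versions. Per the file headers, a MAPS line gives a read count for a pair of 10 kb bins, the background the caller expected, the ratio of the count to it, an FDR and the peak class of the anchors. The lowest MAPS count was 12, and distances ran from 20 to 1000 kb. Per the file headers, a FitHiChIP line gives a contact count, the reads covering each anchor, a signal of expected contacts, a q-value from the caller's p-values and the expected contacts as a fraction of the total, from which the total contacts were recovered. All of these are deposited values of the authors and were not rescaled.

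The promoter table (RefSeq, GRCm38.p6) gave start sites; it is not complete. Partners below the Hoxd13 bin were counted as centromeric, above the Hoxd1 bin as telomeric. MAPS was the main caller. Promoter bins with at least 10 loops over both lists were called at a 2-fold change. Python 3.11.15, pandas 2.3.3 and scipy 1.17.1 were used, and the change and its exact 95% interval were tested on simulated data. The members and gene lists were chosen with earlier results of these data known. Named genes were the members, their neighbours where a loop ended, paralogues and the 5 bins most like Hoxd13. The alternatives were the other caller, a distance limit of 500 kb, stricter FDR and count limits, wider bins, scaling by contacts and other call limits.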

Additional observations from a re-analysis of the deposited data

Results flagged for a closer look

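FitHiChIP listed pairs between start sites of the cluster with auxin that were not in the matching control list, and MAPS listed none inside the cluster in any group. In ESC auxin the bins of Hoxd13 and Hoxd11 shared 325 contacts, and those of Hoxd13 and Hoxd10 with Hoxd9 shared 232. In NPC auxin the bins of Hoxd13 and Hoxd11 shared 581 contacts. Pairs with both anchors inside the cluster, at a start site or not, numbered 3 in ESC control and 3 in ESC auxin. They numbered 0 in NPC control and 1 in NPC auxin. In ESCs the pairs thus differed between the lists while their number did not. The counts of the 3 pairs between start sites were 1.34, 1.34 and 1.31 times those the caller expected. FitHiChIP loops over 1000 kb, which the MAPS lists do not cover, numbered 12 in ESC auxin against 6 in ESC control, and 7 in NPC auxin against 16 in NPC control. Their partners included the bins of Chrna1, Wipf1 and, in ESC auxin, Sp9.

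The Hoxd8 bin moved in opposite directions with auxin in the cell types, by 0.92 (interval -0.41 to 2.22) in ESCs and by -0.35 (-1.52 to 0.57) in NPCs on the log2 scale of the MAPS lists. FitHiChIP gave 0.34 and -0.99. Both intervals included 0, and the difference was not tested.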

How the results depend on the processing

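No paired analysis was possible because each group came as 1 list per caller, with no column per sample, and for the same reason no replicate could be left out. Of 84 values under alternatives, 52 stayed within the interval of the reported value (for counts of bins, within 1.5 times), 32 moved outside it and 0 reversed a direction whose interval had excluded 0. Where no construction shows it, the cause was not tested. Scaled by total contacts in place of list totals, the change of HoxD loops was -1.65 in ESC auxin against control, -1.39 in NPC auxin against control and 0.99 in NPC control against ESC control; this scaling leaves differences in list length in the value. With FitHiChIP it was -0.57 in NPC auxin against control. The telomeric shares, in the order ESC control, ESC auxin, NPC control and NPC auxin, were 56.5%, 53.1%, 51.4% and 61.5% with FitHiChIP at all distances. With a MAPS count of at least 20 they were 77.5% in ESC control and 69.0% in NPC control, and with FDR under 0.0001 they were 100% (14 of 14 loops) in ESC auxin and 86.8% in NPC auxin. Within 500 kb of the anchor, which removes most centromeric partners, they were 88.7%, 100%, 84.5% and 96.7%. At a log2 limit of 0.58 the called HoxD bins were 4 in ESC auxin against control (3 lower, 1 higher), 2 in NPC auxin against control (1 lower, 1 higher) and 3 in NPC control against ESC control (3 higher), in place of 1 each. With FitHiChIP, chosen after seeing the data, they were 2 in NPC auxin against control, 2 in NPC control against ESC control and 0, in place of 2, in NPC auxin against ESC auxin; in ESC auxin against control the number was 1, but of another bin. With anchors allowed to differ by 1 bin, the contact counts at shared loops differed from all shared loops by -0.10 and -0.0265 with auxin in ESCs and NPCs, and by 0.55 and 0.58 in NPCs against ESCs without and with auxin. The alternatives for loops called again were also chosen after seeing the data. Telomeric loops called again were 86.7% in ESCs and 85.8% in NPCs within 1 bin, and in NPCs 54.6% for control loops with FDR under 0.0001 and 50.5% for those with a count of at least 20. Centromeric ones were 57.4% in NPCs within 1 bin and 14.8% in ESCs with FitHiChIP at all distances. In each of these settings the centromeric share was below the telomeric one. A loop absent from a list may lie just under a caller's threshold.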
